A study of Mus musculus with 208 samples.

Results

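Nuclear RNA of neurons from the striatum and the prefrontal cortex (PFC) was compared in control mice, labelled SAL-SAL. The comparison asks which genes separate the neurons of a basal ganglia nucleus from those of the cortex in animals that received neither morphine nor lipopolysaccharide (LPS). Its members were the SAL-SAL libraries of either region with a total count of at least 0.5 of the median total in their region's table. All 13 striatal and all 10 PFC SAL-SAL libraries passed this limit, and together they were 23 of the 208 RNA libraries of the series.

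The series crossed perinatal morphine (MOR) or saline (SAL) with an adult injection of LPS or saline, and sampled 4 brain regions. SAL-SAL mice were wild-type C57BL/6NTac animals of both sexes. Their dams carried saline minipumps, the pups were raised by drug-naive foster dams and were injected with saline 2 times a day from postnatal day 1 to 14, and the adults received saline 2 h before their brains were sampled. Every library of the comparison therefore came from an animal that had been fostered and repeatedly injected. The study's methods put the mice at 8 to 12 weeks of age for the adult injection, and the labels name no age for single animals. Each library was made from about 5000 nuclei of 1 animal, taken by bilateral punches and sorted for NeuN, the neuronal protein that Rbfox3 encodes. The libraries carry 15 replicate numbers, and 8 of these occur in both regions. A number was read as 1 animal, since each kept a single sex and condition, although the labels do not say so. The striatal libraries came from 6 females and 7 males and the PFC libraries from 6 females and 4 males.

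Most neurons of the striatum are GABAergic spiny projection neurons, which respond to dopamine through the D1 receptor (Drd1) in the direct pathway or the D2 receptor (Drd2) in the indirect pathway, and a small number are cholinergic or GABAergic interneurons. Most neurons of the PFC are layered glutamatergic pyramidal cells, which fill their synaptic vesicles through the transporter Slc17a7 and are specified by transcription factors such as Tbr1 and Fezf2. Thalamic neurons, which lie near a striatal punch, use the sister transporter Slc17a6 and are marked by the transcription factors Tcf7l2 and Lef1.

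Levels are given as normalized CPM, the CPM after TMM scaling, which compare 1 gene between libraries and not 2 genes with each other. Differences are fitted log2 fold changes (log2FC, striatum minus PFC) with their standard errors (SE), from edgeR's quasi-likelihood test over 14140 genes with sex as a covariate. A gene was called at a Benjamini-Hochberg adjusted p under 0.05, and was past 2-fold when glmTreat of edgeR gave such a p against a log2FC of 1. Each library of a region has a replicate number of its own.

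Total counts ran from 6658372 to 26176775 in the striatal and from 6605680 to 13784531 in the PFC libraries. The ribosomal transcript Rn18s-rs5 took up to 30.9% of the counts of a library (PFC 10-3), Gm26917 up to 11.1% and Lars2 up to 5.86% (PFC 5-1). Some of these signs moved with the region: Rn18s-rs5 had a median of 3.59% in PFC and 0.667% in striatum, Lars2 of 0.186% and 0.0764%, and genes with a count numbered 15745 and 18120 in the median library. Their part in the regional differences was not tested. Y-linked genes matched the labelled sex in all 23 libraries. PFC 1-3 and PFC 3-0, labelled as different replicates, were closer to each other (chi-square per degree of freedom 3.54 over genes) than any other pair of libraries (42.8 for the next), and were kept as 2 libraries with a fit that counts them as 1 as an alternative. Both belong to the 8 numbers with both regions, so a count out of 8 animals may hold 1 PFC library 2 times. The same holds for a count of PFC libraries above or below the striatal ones. Leaving out 1 of the 2 keeps the other in the fit. Values from a fit within the other 6 animals are given beside several results of the fit within the 8.

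The regional labels were checked first with 5 spiny neuron markers (Drd1, Drd2, Adora2a, Ppp1r1b and Rgs9) and 5 markers of cortical glutamatergic neurons (Slc17a7, Tbr1, Neurod6, Neurod2 and Emx1), picked from the gene lists after their values were seen. The log2 ratio of the summed spiny to the summed cortical markers had a median of 7.20 in the striatal and 1.67 in the PFC libraries. In 5 libraries the ratio was nearer to the median of the other region. The libraries labelled striatum 3-2 and striatum 3-4 held 50.9 and 38.0 CPM of spiny markers and 116 and 145 CPM of cortical markers. The libraries labelled PFC 4-1 and PFC 5-1 held 1286 and 1519 CPM of spiny markers and 0.763 and 5.18 CPM of cortical markers, and PFC 4-3 held 1696 and 68.7 CPM. The ratio of PFC 4-3 lay near the middle between the 2 medians, a borderline case, while those of 4-1 and 5-1 were above the striatal median. Spiny markers were not confined to these libraries in the PFC: their sum ran from 258 to 1837 CPM over the 10 PFC libraries (median 833) and from 38.0 to 2716 CPM over the striatal ones (median 1041). The cortical sum ran from 2.21 to 145 CPM in the striatum (median 7.03) and from 0.763 to 469 CPM in the PFC (median 205). The 5 libraries were kept under their labels, and results are also given without them, over 11 striatal and 7 PFC libraries. Because the markers chose these 5 libraries, a wider gap without them in the markers, or in lists that hold or move with them, follows in part from that choice and is no independent support. Only 1 of the 5, PFC 4-3, belongs to an animal with both regions, so a fit within the 8 animals (animal as a block, 16 libraries) nearly leaves them out as well.

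**Figure D1:**
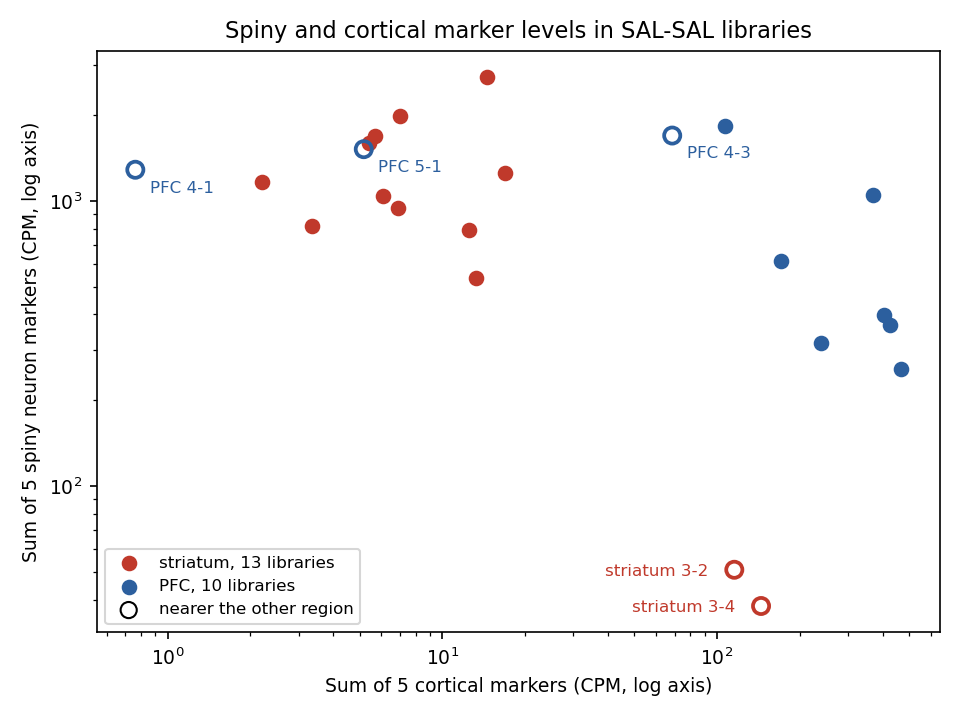
Summed CPM of 5 cortical markers (x axis, log) against summed CPM of 5 spiny neuron markers (y axis, log) in the 13 striatal and 10 PFC SAL-SAL libraries, 1 point per library. Open points are the 5 libraries whose ratio was nearer to the other region's median, 2 labelled striatum and 3 labelled PFC, and PFC libraries reached spiny sums up to 1837 CPM.

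Over all genes, 765 were called higher in striatum (5.41% of those tested) and 1330 higher in PFC (9.41%). Within the 8 animals the counts were 943 (6.67%) and 1483 (10.5%), and without the 5 libraries 1048 (7.41%) and 1734 (12.3%). Past 2-fold were 27 genes higher in striatum (0.191%) and 23 higher in PFC (0.163%). The block by animal raised these to 30 and 112, and leaving out the 5 libraries to 46 and 202. Within the 6 animals left without 1-3 and 3-0, 636 genes were called higher in striatum and 1074 higher in PFC, and 12 and 55 were past 2-fold. Within the 8 animals all 27 striatal and 20 of the 23 PFC 2-fold genes were called in the same direction, and 17 and 16 of them were past 2-fold. Without the 5 libraries all 27 and all 23 were called, and 23 and 20 were past 2-fold. Within the 6 animals Slc17a6 and Slitrk6, for example, were not called. Scaling by library size alone, which moved the median log2FC of all genes from 0.017 to 0.22, turned the split of calls to 1068 higher in striatum and 562 higher in PFC, and that of 2-fold genes to 23 and 6. Leaving out 1 library in turn gave 18 to 74 genes past 2-fold, with 18 without PFC 1-1 and 18 without striatum 9-0. In nuclei pooled from a region, fewer cells of a type and less RNA per cell cannot be told apart.

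Of the genes of cortical glutamatergic neurons, 25 members were tested of a list of 29. Of these 12 were called higher in PFC (among them Slc17a7, Slc30a3, Neurod2, Tbr1, Emx1, Nptx1, Sv2b, Rtn4rl2, Nrgn, Lingo1 and Camk2a) and 1, Slc17a6, higher in striatum. The median log2FC of the list was -1.12, against 0.017 over all genes. Within the 8 animals 18 were higher in PFC and 1 higher in striatum, with a median of -1.94, within the 6 animals the counts were 12 and 0, and without the 5 libraries the counts were 18 and 1. Of the other 4 members, Tafa1 and Tafa2 had no row under these symbols and Neurod1 and Cpne7 had no count in any library.

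Slc17a7 (chr7:45163949-45176142, mm10), the vesicular glutamate transporter of cortical neurons, ran from 0.715 to 103 normalized CPM in the striatal libraries (median 6.00) and from 0.806 to 625 in the PFC libraries (median 172). In 6 PFC libraries it was above every striatal library, and the 2 lowest PFC libraries were 4-1 and 5-1, at 0.806 and 1.38. Its log2FC was -4.09 (SE 0.89, adjusted p = 0.00318), and it was higher in PFC in 8 of 8 animals, where the blocked log2FC was -5.68 (adjusted p = 0.000268). Slc17a7 was among the markers that chose the 5 libraries, and the values left without them, 0.715 to 11.7 normalized CPM in striatum and 80.8 to 625 in PFC, are a description only.

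Tbr1 (chr2:61802930-61814114), a T-box factor of deep-layer neurons, ran from 0.125 to 8.00 normalized CPM in striatum (median 0.896) and from 0 to 28.9 in PFC (median 12.2). It was above every striatal library in 6 PFC libraries and at 0 in 2. Its log2FC was -3.03 (SE 0.74, adjusted p = 0.00731).

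Nptx1, a secreted pentraxin that gathers AMPA receptors at synapses, was the member of the list past 2-fold on the PFC side. It ran from 7.56 to 141 normalized CPM in striatum (median 16.1) and from 44.1 to 516 in PFC (median 226). All 10 PFC libraries were above the striatal median, and 11 striatal libraries were below every PFC library. The log2FC was -3.13 (SE 0.47, adjusted p = 0.000167). Nrgn, which binds calmodulin in dendritic spines, had medians of 54.6 and 277 normalized CPM and a log2FC of -1.84 (SE 0.33, adjusted p = 0.000799), and Camk2a, the alpha subunit of the calcium-dependent kinase of excitatory synapses, medians of 502 and 1125 and a log2FC of -0.98 (SE 0.17, adjusted p = 0.00071). Both were higher in PFC in 8 of 8 animals.

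Transcription factors of the cortex showed the same direction: of 32 tested (of 38 listed) 11 were called higher in PFC and 1, Nr2f2, higher in striatum, with a median log2FC of -0.83. Within animals the counts were 17 and 2, within the 6 animals 9 and 0, and without the 5 libraries 19 and 0. Neurod2, a proneural factor of pyramidal neurons, was at 0 in 7 striatal libraries and reached 20.2 normalized CPM in that region, against 0 to 94.1 in PFC (median 15.6). The striatal values above 1 CPM came from the libraries labelled 3-2 and 3-4, since without them the highest striatal value was 0.317. Its log2FC was -5.55 (SE 1.60, adjusted p = 0.0201). Neurod6, of the same family, ran from 0 to 10.8 in striatum (median 0.135) and from 0 to 20.9 in PFC (median 5.35), with a log2FC of -3.18 (SE 1.11, adjusted p = 0.0536) over all libraries and -5.53 within animals (adjusted p = 0.00164).

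Lmo4 (chr3:144188530-144205220), a LIM-only adaptor that tunes the identity of upper-layer and frontal neurons, was the 1 gene higher in PFC that was past 2-fold, had no overlap between regions and averaged at least 10 normalized CPM. It ran from 12.9 to 45.9 normalized CPM in striatum (median 21.1) and from 48.5 to 111 in PFC (median 78.5). Every PFC library was above every striatal library, those that went against their labels included. Its log2FC was -1.86 (SE 0.19, adjusted p = 4.15e-06), and it was past 2-fold (glmTreat adjusted p = 0.00941). Over all genes, the libraries of the 2 regions did not overlap for 39 (0.276%).

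By layer, 3 of 16 genes of layers 2 to 4 tested (Rspo1, Pou3f1 and Lmo4), 4 of 16 of layer 5 (Fezf2, Bcl11b, Sulf2 and Crym) and 4 of 14 of layer 6 (Rprm, Sulf1, Col5a1 and Gnb4) were called higher in PFC and none higher in striatum by edgeR. The medians of the log2FC were -0.37, -0.13 and -0.87. Within the 8 animals 4, 4 and 5 were called higher in PFC and 2, 1 and 0 higher in striatum. Rprm, a cell cycle regulator used as a layer 6 marker, ran from 0.09 to 7.42 normalized CPM in striatum (median 1.87) and from 0 to 53.9 in PFC (median 17.1), and 7 PFC libraries were above every striatal one. Its log2FC was -3.11 (SE 0.65, adjusted p = 0.00247). Fezf2, the factor that directs layer 5 neurons to project below the cortex, had a log2FC of -3.86 (adjusted p = 0.0449), and this call was lost when any of 19 libraries was left out (adjusted p up to 0.0783), but not within animals (-7.03, adjusted p = 0.000581).

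**Figure D2:**
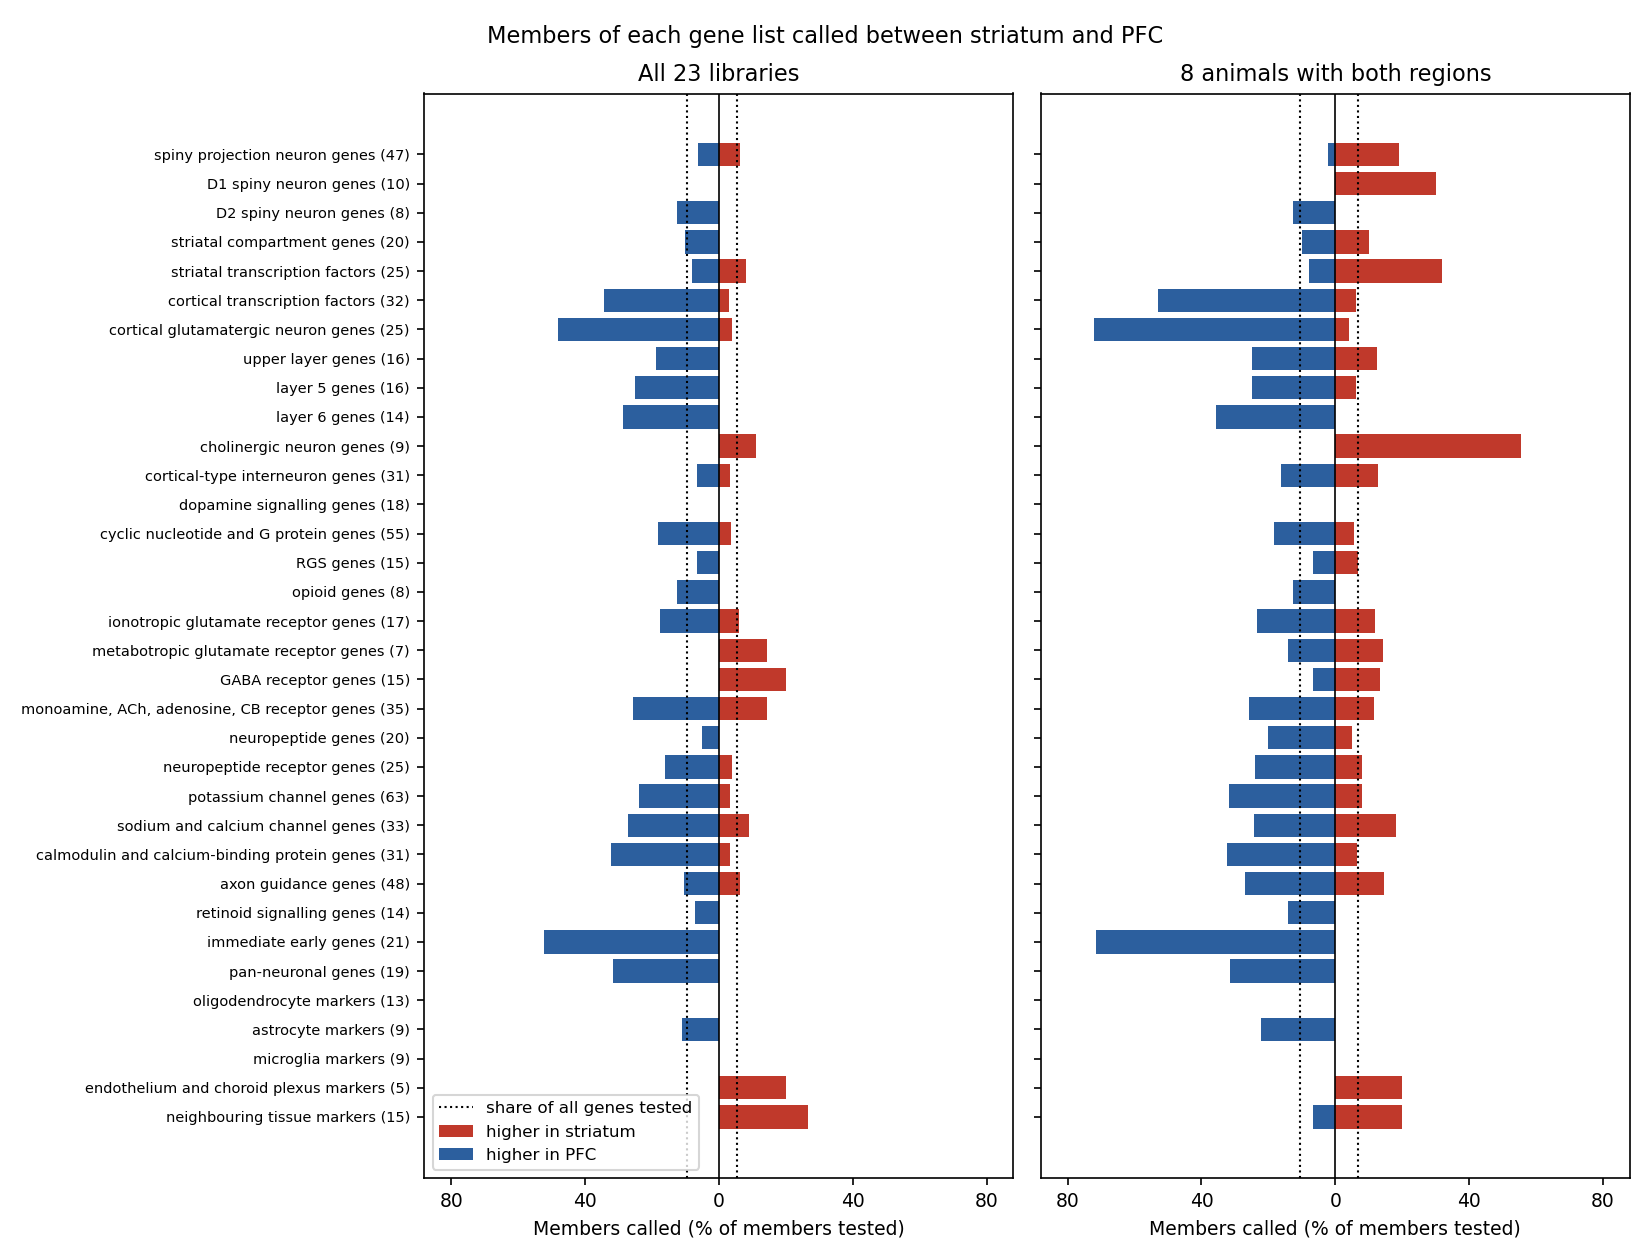
Share of the members tested of 34 gene lists that were called higher in PFC (bars to the left) or in striatum (bars to the right), in % of members, from all 23 libraries (left panel) and within the 8 animals with both regions (right panel). Numbers in brackets are members tested, and dotted lines mark the share of all genes called in that direction: cortical glutamatergic and immediate early genes lie past the PFC line in both panels, while spiny neuron genes lie near the lines in the left panel.

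Genes of spiny projection neurons did not separate the regions as labelled. Of 47 members tested, 3 were called higher in striatum (Gpr155, Cnr1 and Strn) and 3 higher in PFC (Bcl11b, Pde2a and Arpp21), shares close to or under those of all genes, and the median log2FC was -0.041. Within the 8 animals 9 were higher in striatum and 1 in PFC with a median of 0.44, where the median over all genes was 0.11, and within the 6 animals 4 and 1. Without the 5 libraries, which spiny markers helped to choose, the counts were 12 and 0, a shift that this choice fixes in part.

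Drd1, the receptor of the direct pathway, ran from 2.02 to 267 normalized CPM in striatum (median 53.5) and from 9.33 to 127 in PFC (median 32.4). Its lowest values were in the libraries labelled striatum 3-4 and 3-2, and 1 striatal library, 5-3, was above every PFC library. The log2FC was 0.23 (SE 0.54, adjusted p = 0.826), and it was higher in striatum in 6 of 8 animals (blocked log2FC 1.01, adjusted p = 0.146). Drd2, the receptor of the indirect pathway, ran from 2.23 to 483 in striatum (median 166) and from 34.0 to 520 in PFC (median 150), with a log2FC of 0.01 (SE 0.59, adjusted p = 0.995). The highest library for Drd2 was PFC 5-1, one of the libraries that went against its label. Rgs9, which speeds the shut-off of dopamine receptor signalling, had medians of 569 and 503 normalized CPM and a log2FC of -0.04 (SE 0.50, adjusted p = 0.968).

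Adora2a, the adenosine receptor of the indirect pathway, ran from 0.117 to 363 normalized CPM in striatum (median 49.9) and from 8.39 to 118 in PFC (median 58.1). The regions overlapped almost fully for Adora2a and for Ppp1r1b, the phosphatase inhibitor DARPP-32 (medians 37.7 and 72.6). Their log2FC were 0.29 (adjusted p = 0.82) and -0.64 (adjusted p = 0.586). The 7 PFC libraries that did not go against their labels still held Drd1 at 9.33 to 69.9, Drd2 at 34.0 to 332 and Ppp1r1b at 11.1 to 143 normalized CPM. Counts of Drd1 and Drd2 were above 0 in all 23 libraries.

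Cnr1, the cannabinoid receptor CB1, ran from 63.2 to 873 normalized CPM in striatum (median 154) and from 44.0 to 126 in PFC (median 71.2). In 8 striatal libraries it was above every PFC library. The log2FC was 1.40 (SE 0.36, adjusted p = 0.00988), while within the 8 animals it was 0.93 (adjusted p = 0.0555). Bcl11b, a factor of both spiny neurons and layer 5 cortical neurons, had medians of 272 and 587 normalized CPM and a log2FC of -1.37 (SE 0.39, adjusted p = 0.0189). That call rested on 1 library, PFC 5-1 at 2808 normalized CPM, without which the log2FC was -0.78 (adjusted p = 0.115), and within animals it was -0.60 (adjusted p = 0.111). Strn, a calmodulin-binding scaffold named for the striatum, had medians of 230 and 118 and a log2FC of 0.92 (adjusted p = 0.0311), and this call was lost without any of 5 libraries (adjusted p up to 0.0755, without striatum 10-3). The other calls of the list were also lost in turn: Gpr155 without PFC 1-1 or striatum 10-3 (adjusted p up to 0.0575), Arpp21 without striatum 4-3 (adjusted p = 0.0532), and Pde2a without any of 15 libraries (adjusted p up to 0.194, without PFC 5-1) and within animals (adjusted p = 0.212).

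For the enzymes of GABA synthesis, Gad1 and Gad2, the fits differed. Gad1 ran from 54.5 to 471 normalized CPM in striatum (median 204) and from 62.2 to 277 in PFC (median 113), and Gad2 had medians of 229 and 135. Over all libraries their log2FC of 0.85 (adjusted p = 0.059) and 0.46 (adjusted p = 0.417) did not pass the test. Both were higher in striatum in 7 of 8 animals, and the blocked log2FC were 1.14 (adjusted p = 0.00826) and 1.10 (adjusted p = 0.0128), and within the 6 animals 0.89 (adjusted p = 0.0396) and 0.86 (adjusted p = 0.0658).

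Of the genes of D1 neurons, 0 of 10 were called by edgeR over all libraries, with a median log2FC of 0.29, but 3 were called higher in striatum within the 8 animals (Isl1, Ebf1 and Stk32a) and 1 within the 6. Isl1, a LIM homeobox factor of direct pathway and cholinergic neurons, ran from 0 to 33.2 normalized CPM in striatum (median 11.6) and from 0 to 19.3 in PFC (median 2.37). It was higher in striatum in 8 of 8 animals, with a blocked log2FC of 2.73 (adjusted p = 0.00901) against 1.92 (SE 0.86, adjusted p = 0.137) over all libraries and 2.59 (adjusted p = 0.0555) within the 6 animals. Ebf1, a factor of direct pathway neurons, was likewise higher in 8 of 8 animals, with a blocked log2FC of 2.15 (adjusted p = 0.00982) against 0.73 (SE 0.57, adjusted p = 0.426), and its highest level, 237 normalized CPM, was in the library labelled PFC 5-1. Tac1, the precursor of substance P in D1 neurons, had medians of 46.7 and 43.9 and a log2FC of 0.36 (adjusted p = 0.749).

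Of 8 genes of D2 neurons tested, 1, the kainate receptor subunit Grik3, was called, and it was higher in PFC. Grik3 ran from 143 to 560 normalized CPM in striatum (median 320) and from 387 to 1536 in PFC (median 801). In 7 PFC libraries it was above every striatal library, and 9 striatal libraries were below every PFC library. Its log2FC was -1.53 (SE 0.27, adjusted p = 0.000746).

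Striatal transcription factors gave 2 calls in each direction among 25 tested of 31 listed (Ikzf2 and Zfp521 in striatum, Foxp4 and Bcl11b in PFC), with a median log2FC of -0.10. These counts were near the shares of all genes, 5.41% in striatum and 9.41% in PFC, which were 6.67% and 10.5% within animals. Within animals 8 were higher in striatum (Meis1, Meis2, Ebf1, Isl1, Zfp521, Zfhx3, Pbx3 and Lhx8) and 2 in PFC, with a median of 0.56, within the 6 animals the counts were 4 and 2, and without the 5 libraries the counts were 7 and 1. Zfp521, a zinc finger factor that works with Ebf1 in direct pathway neurons, ran from 6.23 to 153 normalized CPM in striatum (median 102) and from 8.97 to 85.0 in PFC (median 30.6). Levels exceeded every PFC library in 9 striatal libraries and higher in striatum in 8 of 8 animals, with a log2FC of 1.64 (SE 0.39, adjusted p = 0.00628). Foxp4, a forkhead factor, had medians of 11.2 and 26.4 and a log2FC of -1.50 (adjusted p = 0.0049).

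Dopamine signalling genes gave 0 calls among 18 tested and genes of the striatal compartments 0 in striatum and 2 in PFC (Sema5b and Crym) among 20, with medians of -0.041 and -0.20. The shares of all genes called were 5.41% in striatum and 9.41% in PFC. Of the opioid genes, 1 of 8 was called, the delta receptor Oprd1, with medians of 13.9 normalized CPM in striatum and 24.5 in PFC and a log2FC of -0.78 (adjusted p = 0.0493). That call was lost without any of 16 libraries (adjusted p up to 0.136, without PFC 10-3).

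Of 9 cholinergic neuron genes tested, 1, Slc5a7, was called, higher in striatum, and the median log2FC was 0.94. Slc5a7, the high-affinity choline transporter, ran from 1.29 to 20.4 normalized CPM in striatum (median 9.30) and from 0 to 7.50 in PFC (median 0.903). It was above every PFC library in 7 striatal libraries, and all 13 were above the PFC median. The log2FC was 2.62 (SE 0.71, adjusted p = 0.0139). Within animals 5 were called (Chat, Slc5a7, Lhx8, Tacr1 and Isl1), with a median of 1.96, but 0 by edgeR within the 6 animals, where Slc5a7 was at 2.65 (adjusted p = 0.151). Chat, the acetylcholine-synthesizing enzyme, had medians of 17.2 and 7.52 and a log2FC of 0.94 (adjusted p = 0.303), with a blocked value of 1.83 (adjusted p = 0.0338), and 1.60 (adjusted p = 0.135) within the 6 animals.

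Of 31 genes of cortical-type interneurons tested, 1, Prox1, was called higher in striatum and 2, Cort among them, higher in PFC, and within animals the counts were 4 and 5. The first 2 counts lie under the shares of all genes, 5.41% and 9.41%, which were 6.67% and 10.5% within animals. Cort, the peptide cortistatin of a group of interneurons, was at 0 to 2.11 normalized CPM in striatum (median 0.191) and 0 to 9.53 in PFC (median 3.12). The gene was above every striatal library in 7 PFC libraries. Its log2FC was -3.84 (SE 0.93, adjusted p = 0.00672).

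**Figure D3:**
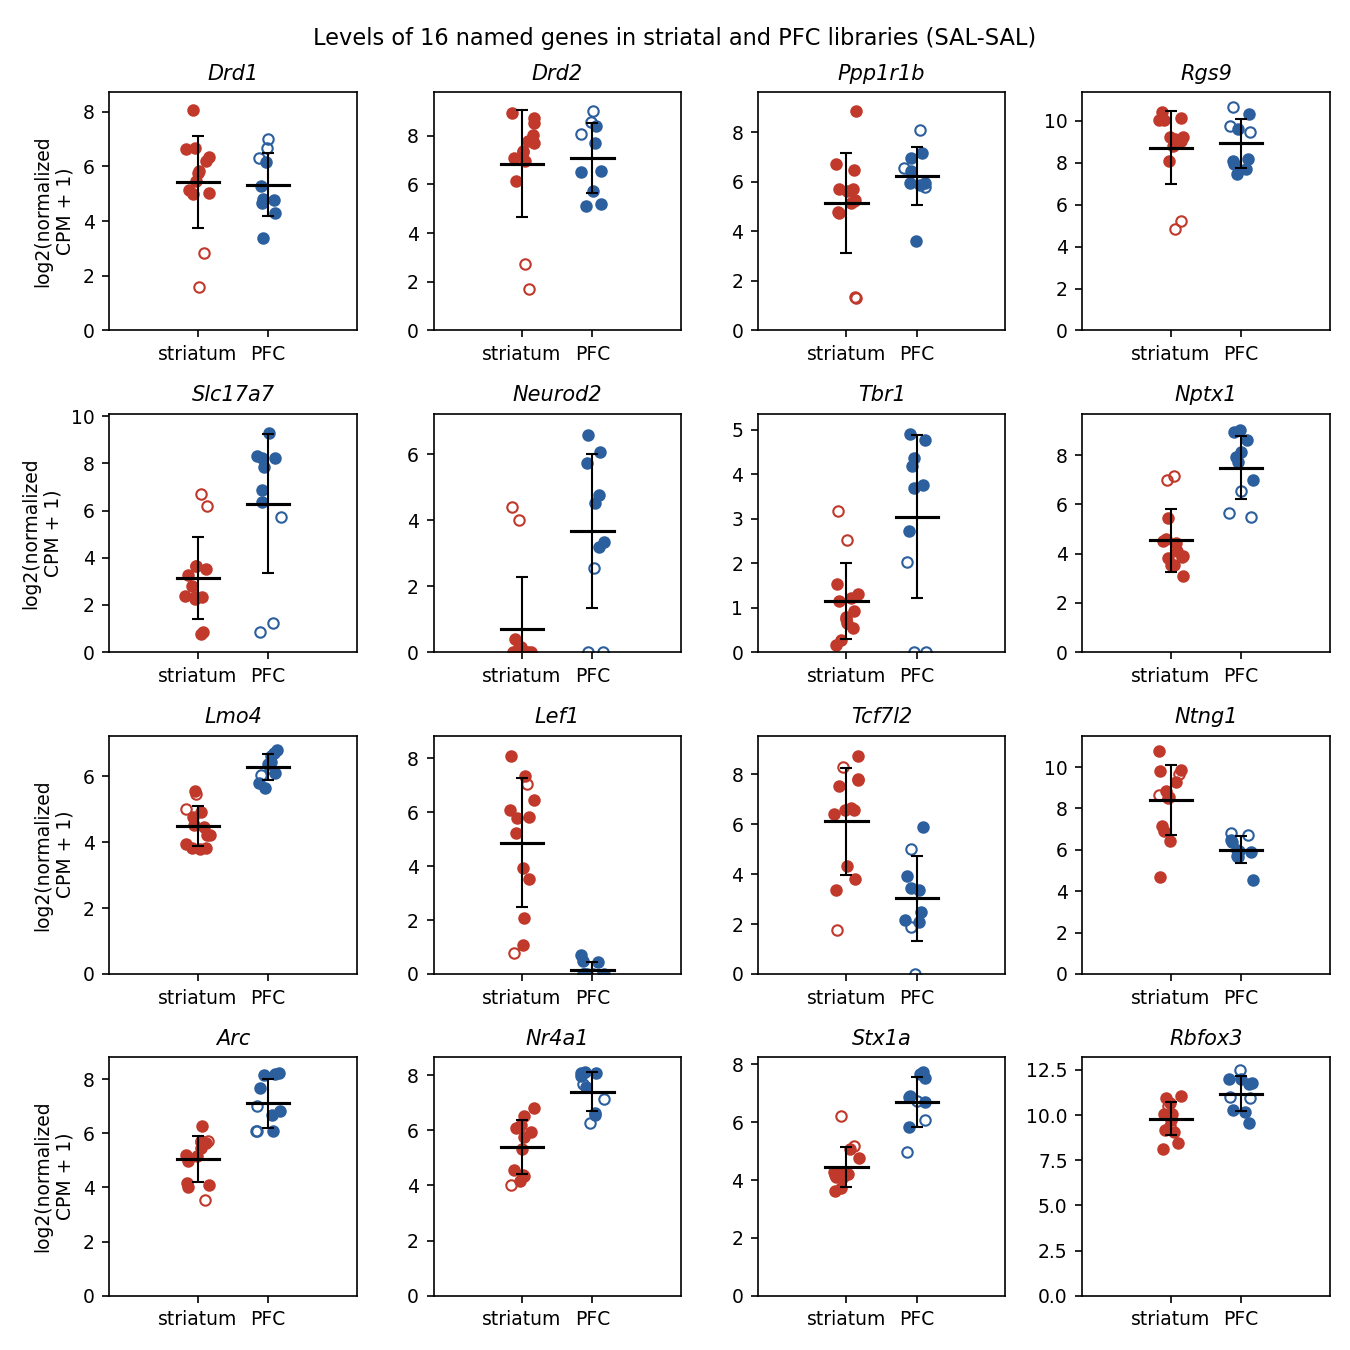
Level of 16 genes as log2(normalized CPM + 1) in the 13 striatal and 10 PFC SAL-SAL libraries, 1 point per library, with the mean (line) and SD (bars) per region, and open points for the 5 libraries nearer to the other region in the marker check. Drd1, Drd2, Ppp1r1b and Rgs9 overlap between regions, Lmo4 and Lef1 do not, and for Slc17a7 and Neurod2 the open striatal points lie above the filled striatal points and 2 open PFC points (4-1 and 5-1) lie with the striatum.

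No gene of the spiny neuron list was among the 27 genes past 2-fold in striatum. Of the 27 genes past 2-fold in striatum, those that belong to a gene list were Lef1, Tcf7l2, Slc17a6, Ntng1 and Vipr2. Lef1 and Tcf7l2 stand in the list of neighbouring tissues (thalamus, septum, pallidum, olfactory bulb and hippocampus). Of its 15 members tested, 4 were called higher in striatum (Lef1, Tcf7l2, Prkcd and Prox1) and 0 higher in PFC by edgeR, with a median log2FC of 1.86. The summed level of the list ran from 201 to 1236 normalized CPM in striatum (median 561) and from 145 to 443 in PFC (median 258). Within animals 3 were higher in striatum and 1, Trpc4, higher in PFC, and the median fell to 0.82, and to 1.19 without the 5 libraries.

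Lef1 (chr3:131110471-131224356), a transcription factor of Wnt signalling found in thalamic neurons, ran from 0.705 to 273 normalized CPM in striatum (median 54.6) and was at 0 in 7 of 10 PFC libraries, with a highest PFC value of 0.635. No striatal library overlapped a PFC library. The striatal level was graded: it was highest in striatum 9-0 (273), 11-1 (162) and 3-4 (132), and lowest in 3-2 (0.705), 1-3 (1.11) and 5-3 (3.17). The log2FC was 8.61 (SE 1.08, adjusted p = 7.53e-05), and it was higher in striatum in 8 of 8 animals. Its exons are shared with the antisense gene Gm43352.

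Tcf7l2, the other Wnt-pathway factor of thalamic neurons, ran from 2.35 to 431 normalized CPM in striatum (median 94.4) and from 0 to 59.0 in PFC (median 6.97). Its highest striatal values were in 9-0 (431), 3-4 (309) and 9-2 (227) and its lowest in 3-2 (2.35), 5-3 (9.20) and 1-3 (12.8), the 3 libraries that were also lowest for Lef1, and 9 striatal libraries were above every PFC library. The log2FC of Tcf7l2 was 3.91 (SE 0.80, adjusted p = 0.002). Slc17a6 (chr7:51622006-51671119), the vesicular glutamate transporter of subcortical neurons, ran from 3.28 to 119 in striatum (median 35.8) and from 0 to 10.8 in PFC (median 2.46). All 13 striatal libraries were above the PFC median, and 9 were above every PFC library. Its log2FC was 3.77 (SE 0.75, adjusted p = 0.00169), and it was not past 2-fold within the 8 animals (glmTreat adjusted p = 0.25) or without the 5 libraries (glmTreat adjusted p = 0.0526).

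Ntng1, netrin-G1, a membrane-anchored guidance protein of thalamic axons, ran from 24.6 to 1749 normalized CPM in striatum (median 400) and from 22.1 to 112 in PFC (median 61.1). It was lowest in striatum 5-3 and highest in 9-0, and 11 striatal libraries were above every PFC library. The log2FC was 2.97 (SE 0.51, adjusted p = 0.000522). Prkcd, a protein kinase C of thalamic relay neurons, had medians of 73.4 and 2.51 and a log2FC of 3.40 (SE 1.06, adjusted p = 0.0308), and its call was lost without striatum 9-0 (3.05, adjusted p = 0.0865), PFC 1-1, PFC 1-3 or PFC 3-0. Nr2f2, an orphan receptor of thalamic and interneuron development, had medians of 6.81 and 1.55 and a log2FC of 2.72 (adjusted p = 0.0222), and was not called without striatum 3-2 (2.45, adjusted p = 0.0501) or without the 5 libraries (2.07, adjusted p = 0.0786).

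In the same striatal libraries the spiny markers did not fall to 0: striatum 9-0 held Drd1 at 31.4, Drd2 at 162 and Gad1 at 181 normalized CPM, and striatum 5-3, among the 3 lowest striatal libraries for Lef1, Tcf7l2, Slc17a6 and Ntng1, held them at 267, 260 and 471. Striatum 3-4 held Drd1 at 2.02 and Drd2 at 5.68 beside 132 of Lef1 and 103 of Slc17a7. The part of neighbouring tissue in the striatal calls was not tested.

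Named after their values were seen, further genes past 2-fold on the striatal side were Shox2, Vav3, Synpo2, Fign and Slitrk6. Shox2, a homeobox factor, was at 0 in all 10 PFC libraries and reached 20.2 normalized CPM in striatum (median 3.45), where 2 libraries were at 0. It was at least 210-fold higher in striatum against a floor of 3 counts over the PFC libraries, and shares exons with Rsrc1 on the other strand. Vav3, a guanine nucleotide exchange factor of small GTPases, had medians of 169 and 25.8 and a log2FC of 2.99 (adjusted p = 0.000149), Synpo2, an actin-binding protein, medians of 155 and 19.4 and a log2FC of 3.03 (adjusted p = 0.000421), and Fign, a microtubule-severing ATPase, medians of 63.8 and 6.42 and a log2FC of 3.10 (adjusted p = 0.000149). Slitrk6, a neurite-controlling membrane protein, ran from 1.16 to 30.3 in striatum and from 0 to 1.00 in PFC, without overlap, but was not past 2-fold within the 8 animals (glmTreat adjusted p = 0.12).

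Promoters of the 2-fold genes were searched for motifs. For Lef1 and Slc17a6, 1 RefSeq window of 300 bases that held a match is shown (250 before to 50 after a transcription start, GRCm38.p6). The capitals mark CAGATG, an E-box of NeuroD-type factors, or its reverse complement. The Lef1 window is chr3:131112541-131112840 on the plus strand and the Slc17a6 window chr7:51624387-51624686 on the plus strand.
Lef1: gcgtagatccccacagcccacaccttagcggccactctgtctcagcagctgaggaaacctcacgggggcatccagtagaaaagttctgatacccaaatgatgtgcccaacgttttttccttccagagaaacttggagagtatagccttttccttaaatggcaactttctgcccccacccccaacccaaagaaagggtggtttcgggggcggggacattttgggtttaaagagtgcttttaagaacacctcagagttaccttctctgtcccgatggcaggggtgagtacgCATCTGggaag
Slc17a6: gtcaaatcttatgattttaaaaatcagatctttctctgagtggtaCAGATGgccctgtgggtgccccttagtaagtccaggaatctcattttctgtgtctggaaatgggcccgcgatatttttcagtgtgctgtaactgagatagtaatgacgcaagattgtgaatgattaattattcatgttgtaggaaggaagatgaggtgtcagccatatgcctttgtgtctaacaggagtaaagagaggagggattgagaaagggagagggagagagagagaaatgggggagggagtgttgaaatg
A match is a description of the letters and not a site in use.

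Immediate early genes, which neurons switch on within minutes of activity, were called in PFC and not in striatum. Of 21 tested of 23 listed, 11 were higher in PFC (Fosl2, Junb, Jund, Egr1, Egr3, Egr4, Arc, Npas4, Nr4a1, Nr4a3 and Ier2) and 0 in striatum, with a median log2FC of -1.49. Within animals 15 and 0 were called, with a median of -1.95, within the 6 animals 10 and 0, and without the 5 libraries 16 and 0. The summed level of the list ran from 299 to 1078 normalized CPM in striatum (median 516) and from 847 to 2163 in PFC (median 1159).

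Arc, whose protein removes AMPA receptors from active synapses, ran from 10.7 to 75.9 normalized CPM in striatum (median 36.1) and from 66.6 to 301 in PFC (median 120). In 7 PFC libraries it was above every striatal library, and 12 striatal libraries were below every PFC library. The log2FC was -2.21 (SE 0.29, adjusted p = 8.39e-05), past 2-fold, and Arc was higher in PFC in 8 of 8 animals. Nr4a1, an orphan nuclear receptor, ran from 15.4 to 111 in striatum (median 53.4) and from 75.2 to 274 in PFC (median 200), with 7 PFC libraries above every striatal one and a log2FC of -2.08 (SE 0.28, adjusted p = 8.39e-05). Junb, a subunit of AP-1, ran from 2.62 to 27.1 in striatum (median 6.33) and from 14.3 to 94.6 in PFC (median 43.9), with a log2FC of -2.44 (SE 0.39, adjusted p = 0.000271), and shares exons with Prdx2 on the other strand.

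Egr1, a zinc finger factor, had medians of 50.5 and 216 normalized CPM and a log2FC of -1.75 (SE 0.37, adjusted p = 0.00242). Npas4, a factor induced by calcium entry, had medians of 15.3 and 44.0 and a log2FC of -1.49 (SE 0.34, adjusted p = 0.00487). Both overlapped between regions but were higher in PFC in 8 of 8 animals. Egr3 and Nr4a3, of the same families, had log2FC of -1.82 (adjusted p = 0.00199) and -1.71 (adjusted p = 0.000522). Fos itself ran from 2.50 to 26.1 in striatum (median 5.67) and from 0.549 to 55.1 in PFC (median 15.1), with a log2FC of -1.12 (SE 0.43, adjusted p = 0.0765).

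For Nr4a1, the promoter window that held a match is chr15:101266596-101266895 on the plus strand (RefSeq, GRCm38.p6), shown since Nr4a1 was 1 of the 3 immediate early genes past 2-fold, with Arc and Junb. The capitals mark CCCNNGGG, a palindrome of EBF-type factors.
Nr4a1: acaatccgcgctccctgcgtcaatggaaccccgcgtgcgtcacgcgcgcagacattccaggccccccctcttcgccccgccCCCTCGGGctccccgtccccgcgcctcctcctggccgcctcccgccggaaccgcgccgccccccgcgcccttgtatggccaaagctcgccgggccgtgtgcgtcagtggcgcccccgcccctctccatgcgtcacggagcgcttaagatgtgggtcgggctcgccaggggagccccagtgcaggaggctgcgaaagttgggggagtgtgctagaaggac
The cAMP response element TGACGTCA, by which CREB reaches many such genes, was in 0 of the 18 windows of the PFC 2-fold genes.

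**Figure D4:**
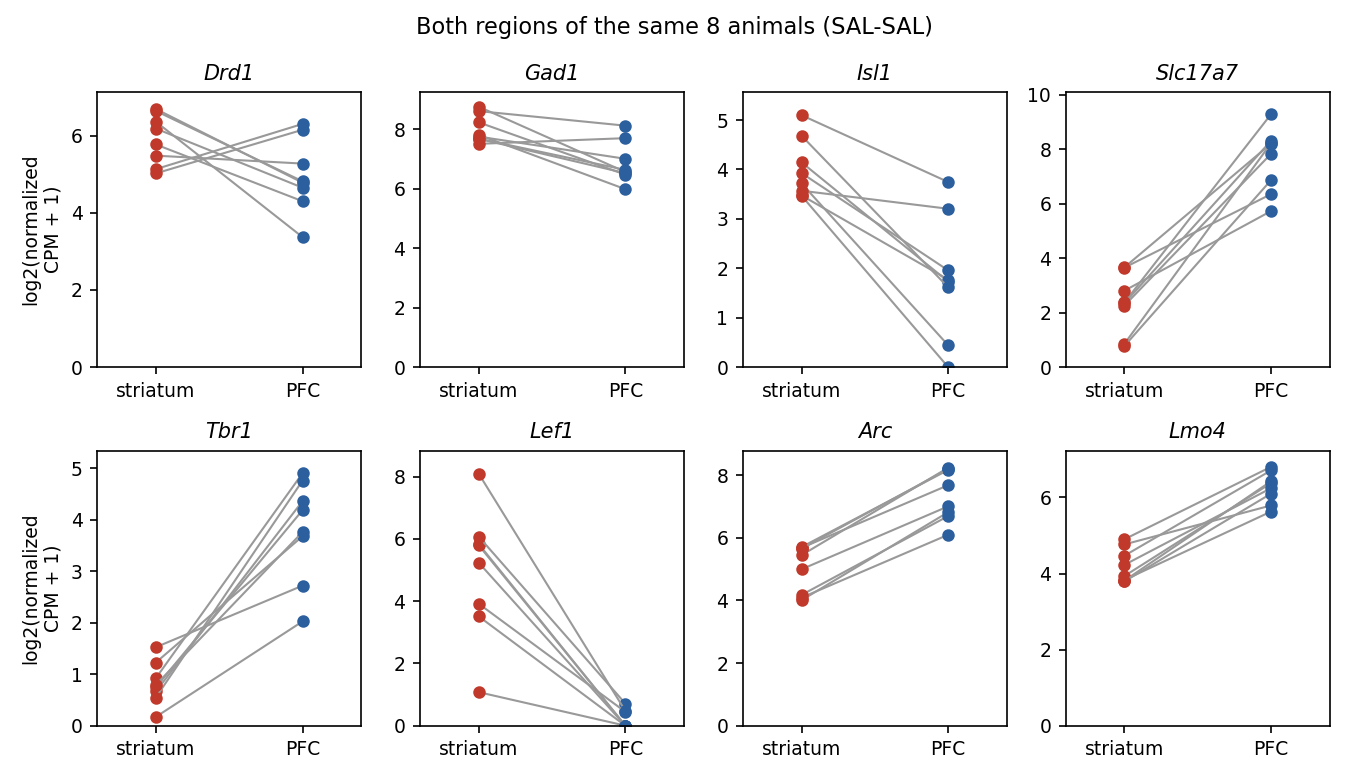
Level of 8 genes as log2(normalized CPM + 1) in the striatal and the PFC library of the same 8 animals, joined by lines. Slc17a7, Tbr1, Arc and Lmo4 were higher in PFC and Isl1 and Lef1 higher in striatum in 8 of 8 animals, Gad1 was higher in striatum in 7 and Drd1 in 6.

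Of 35 genes of monoamine, acetylcholine, adenosine and cannabinoid receptors tested, 5 were higher in striatum (Htr4, Htr7, Chrm2, Chrnb4 and Cnr1) and 9 higher in PFC (Htr1f, Htr6, Chrm1, Chrna5, Adra1a, Adrb1, Adora1, Hrh1 and Hrh3), where 5.41% and 9.41% of all genes were, with a median log2FC of -0.21. Within animals the counts were 4 and 9. Htr7, a serotonin receptor coupled to adenylyl cyclase, ran from 9.41 to 59.3 normalized CPM in striatum (median 25.1) and from 1.19 to 16.1 in PFC (median 5.26). It was above every PFC library in 10 striatal libraries and higher in striatum in 8 of 8 animals, with a log2FC of 2.21 (SE 0.38, adjusted p = 0.000512). The call of Chrm2, the M2 muscarinic receptor, was lost without any of 13 libraries (adjusted p up to 0.079, without PFC 4-3) and within animals (adjusted p = 0.0603). Htr4, another such serotonin receptor, had medians of 53.9 and 23.2 and a log2FC of 1.28 (SE 0.35, adjusted p = 0.0148). Chrm1, the M1 muscarinic receptor of cortical neurons, had medians of 95.1 and 180 and a log2FC of -1.01 (SE 0.24, adjusted p = 0.00558), which missed the threshold when libraries were scaled by size alone (-0.81, adjusted p = 0.0556). Adora1, the inhibitory adenosine receptor, had medians of 50.0 and 95.9 and a log2FC of -1.02 (SE 0.19, adjusted p = 0.000945).

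Among 25 neuropeptide receptor genes tested, Vipr2 was higher in striatum and Sstr4, Cckbr, Vipr1 and Oprd1 were higher in PFC. The receptors of vasoactive intestinal peptide thus took opposite sides. Vipr2 ran from 0.211 to 37.9 normalized CPM in striatum (median 11.2) and from 0 to 3.24 in PFC, where 6 libraries were at 0, with 9 striatal libraries above every PFC library and a log2FC of 5.24 (SE 1.05, adjusted p = 0.00169). Vipr1 ran from 6.45 to 31.8 in striatum (median 17.4) and from 13.1 to 93.1 in PFC (median 50.0), with 7 PFC libraries above every striatal one and a log2FC of -1.57 (SE 0.28, adjusted p = 0.000704). Cckbr, the receptor of cholecystokinin and gastrin in the brain, ran from 1.82 to 24.5 in striatum (median 7.02) and from 5.75 to 140 in PFC (median 38.5). In 8 PFC libraries Cckbr was above every striatal library, and its log2FC of -2.66 (SE 0.38, adjusted p = 0.00014) was past 2-fold. Of 20 neuropeptide genes tested, 1, Cort, was called, and within animals 1 was called in striatum and 4 in PFC. In MOR-SAL, SAL-LPS and MOR-LPS 4, 4 and 6 were called in PFC and 0, 0 and 1 in striatum.

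Of 17 ionotropic glutamate receptor genes, 1, Grik2, was called higher in striatum and 3 (Grik3, Grik5 and Grin1) higher in PFC, where 5.41% and 9.41% of all genes were. The call of Grik2, a kainate receptor subunit, was lost without any of 10 libraries (adjusted p up to 0.0677, without PFC 3-0). Grin1, the obligatory subunit of NMDA receptors, had medians of 254 and 483 normalized CPM and a log2FC of -0.75 (SE 0.19, adjusted p = 0.00826), which missed the threshold when libraries were scaled by size alone (-0.51, adjusted p = 0.075).

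Of 15 GABA receptor genes tested, 3 were higher in striatum (Gabra4, Gabrb2 and Gabrg1) and 0 in PFC, with a median log2FC of 0.29. Within animals the counts were 2 and 1, and without the 5 libraries 3 and 1. Shares of all genes were 5.41% and 9.41%, and 6.67% and 10.5% within animals. Gabra4, the alpha subunit of extrasynaptic receptors, ran from 111 to 351 normalized CPM in striatum (median 240) and from 56.0 to 144 in PFC (median 117). It was above every PFC library in 11 striatal libraries and higher in striatum in 8 of 8 animals, with a log2FC of 1.07 (SE 0.20, adjusted p = 0.0011), and shares exons with Gabrb1 on the other strand. Gabrg1, a gamma subunit, had a log2FC of 2.39 (SE 0.61, adjusted p = 0.00931), and Gabrb2, a beta subunit, one of 0.62 (adjusted p = 0.024) that was lost within animals (0.58, adjusted p = 0.0584) and without PFC 1-1 (0.57, adjusted p = 0.0537) or striatum 9-0.

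Of 63 potassium channel genes tested, 15 were higher in PFC and 2 (Kcnc2 and Hcn4) higher in striatum, with a median log2FC of -0.34, and within animals 20 and 5. Among all genes 9.41% were higher in PFC and 5.41% higher in striatum, and within animals 10.5% and 6.67%. Kcnh3, an ether-a-go-go type channel of the forebrain, ran from 25.9 to 94.3 normalized CPM in striatum (median 45.7) and from 71.5 to 343 in PFC (median 137). In 8 PFC libraries it was above every striatal library. It had a log2FC of -1.76 (SE 0.28, adjusted p = 0.000261), and shares exons with Mcrs1 on the other strand. Kcnc2, a Kv3 channel of fast-spiking neurons, had medians of 440 and 143 and a log2FC of 1.53 (adjusted p = 0.0211), but 1.16 within animals (adjusted p = 0.117) and 1.25 without striatum 9-0 (adjusted p = 0.053). Hcn4, a pacemaker channel, lost its call without PFC 1-1, PFC 1-3 or striatum 9-0 (adjusted p up to 0.0746).

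Sodium and calcium channel genes gave 9 calls in PFC and 3 in striatum (Scn1a, Scn3a and Scn9a) among 33 tested. For this list and the calmodulin list below, the shares of all genes were 9.41% in PFC and 5.41% in striatum. Within animals they were 10.5% and 6.67%. Within animals the counts were 8 and 6, and in MOR-SAL, SAL-LPS and MOR-LPS, which used other animals, 3 were called in PFC in each against 6, 4 and 4 in striatum. In those conditions 12.1%, 12.1% and 13.3% of all genes were called in PFC, so the 3 calls lie under that share. In striatum the shares were 8.63%, 8.7% and 7.96%. Scn1a, the sodium channel Nav1.1, ran from 175 to 364 normalized CPM in striatum (median 265) and from 105 to 220 in PFC (median 141). Levels exceeded every PFC library in 11 striatal libraries, with a log2FC of 0.77 (SE 0.16, adjusted p = 0.0019). Cacna1a, the P/Q-type calcium channel of presynaptic terminals, had medians of 416 and 745 and a log2FC of -1.04 (SE 0.28, adjusted p = 0.0139). That call was lost within the 6 animals (-0.79, adjusted p = 0.0751). Of 31 genes of calmodulin and calcium-binding proteins 10 were higher in PFC and 1, Camk2d, in striatum. Hpcal4, a neuronal calcium sensor, ran from 20.4 to 146 in striatum (median 53.5) and from 112 to 253 in PFC (median 206), with 7 PFC libraries above every striatal one and a log2FC of -1.71 (SE 0.27, adjusted p = 0.000261).

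Cyclic nucleotide and G protein genes, many of which spiny neurons use to read dopamine, gave 10 calls in PFC and 2 in striatum (Pde3a and Prkg2) among 55 tested. Within animals the counts were 10 and 3. All genes gave shares of 9.41% in PFC and 5.41% in striatum, and 10.5% and 6.67% within animals. Pde4a, a cAMP phosphodiesterase, ran from 65.3 to 153 normalized CPM in striatum (median 109) and from 120 to 479 in PFC (median 281). It was above every striatal library in 8 PFC libraries, with a log2FC of -1.50 (SE 0.21, adjusted p = 0.000113). Gnai2, an inhibitory G protein alpha subunit, had medians of 16.1 and 45.8 and a log2FC of -1.63 (SE 0.24, adjusted p = 0.000168). Pde3a, a phosphodiesterase inhibited by cGMP, went the other way, with medians of 26.1 and 9.93 and a log2FC of 1.17 (SE 0.33, adjusted p = 0.0197). Of 15 RGS genes, 1, Rgs19, was called, in PFC.

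Axon guidance genes gave 3 calls in striatum (Sema6a, Ntng1 and Unc5c) and 5 in PFC (Ephb6, Efna3, Sema4a, Sema5b and Unc5a) among 48 tested, where 5.41% and 9.41% of all genes were called, and within animals 7 and 13. Ephb6, an ephrin receptor without kinase activity, had medians of 45.5 normalized CPM in striatum and 130 in PFC and a log2FC of -1.52 (SE 0.26, adjusted p = 0.000604). Unc5c, a repulsive netrin receptor, ran from 86.6 to 702 in striatum (median 399) and from 103 to 288 in PFC (median 197), with 9 striatal libraries above every PFC library and a log2FC of 0.98 (SE 0.27, adjusted p = 0.0149). Of 14 retinoid signalling genes, 1, Rxrb, was called, in PFC.

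Of 19 pan-neuronal genes tested, 6 were higher in PFC (among them Rbfox3, Stx1a, Syn1, Dlg4 and Elavl3) and 0 in striatum. The same 6 were called within animals and without the 5 libraries. Rbfox3, the gene of the sorted protein, ran from 282 to 2146 normalized CPM in striatum (median 1062) and from 749 to 5708 in PFC (median 2715). Its regions overlapped, with 5 PFC libraries above every striatal one, and the log2FC was -1.44 (SE 0.36, adjusted p = 0.00882). Syn1, which holds synaptic vesicles in reserve, had medians of 132 and 278 and a log2FC of -0.98 (SE 0.17, adjusted p = 0.000703). Stx1a, a SNARE protein of vesicle fusion, ran from 11.3 to 72.8 in striatum (median 18.0) and from 30.4 to 210 in PFC (median 111), with 7 PFC libraries above every striatal one. It was past 2-fold, with a log2FC of -2.37 (SE 0.32, adjusted p = 8.39e-05). Named after its values were seen, Igsf21, a synaptic adhesion protein, was also past 2-fold, with medians of 67.9 and 295 and a log2FC of -2.19 (SE 0.31, adjusted p = 0.000113).

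The window of Stx1a that held a match is chr5:135023232-135023531 on the plus strand (RefSeq, GRCm38.p6), shown as the pan-neuronal gene past 2-fold. The capitals again mark CCCNNGGG.
Stx1a: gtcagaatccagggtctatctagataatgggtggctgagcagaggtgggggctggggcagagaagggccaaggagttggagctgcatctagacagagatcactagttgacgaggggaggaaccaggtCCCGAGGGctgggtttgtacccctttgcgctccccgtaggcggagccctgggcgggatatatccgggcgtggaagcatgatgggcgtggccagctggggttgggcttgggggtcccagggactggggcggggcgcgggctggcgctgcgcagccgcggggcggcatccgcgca
Over all 32851 windows, CAGATG was in 17.2%, TGACGTCA in 1.79%, TGTTTAC (a forkhead motif) in 3.65% and CCCNNGGG in 13.7%, counting both strands and any overlap. In the 24 windows of 17 of the 27 striatal 2-fold genes the shares were 12.5%, 0%, 0% and 12.5%, and in the 18 windows of 15 of the 23 PFC genes 11.1%, 0%, 11.1% and 22.2%. The other 2-fold genes had no window in the table. At these numbers 1 window is several percent of a set, and no difference was tested.

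Oligodendrocyte (13 tested) and microglia markers (9 tested) gave 0 calls by edgeR, and of 9 astrocyte markers Sox9 was called. The summed oligodendrocyte level ran from 168 to 4514 normalized CPM in striatum (median 423) and from 165 to 5018 in PFC (median 342), that of microglia from 14.0 to 108 (median 22.3) and from 14.5 to 290 (median 37.6), and that of astrocytes from 99.9 to 535 (median 273) and from 155 to 1105 (median 459). The microglial marker P2ry12 and the astrocytic Gfap were at 0 in all 23 libraries, as were 2 of 21 pan-neuronal genes listed, so a 0 here does not show that a gene was absent. Sox9, a factor of astrocytes, ran from 0.149 to 1.61 in striatum (median 0.973) and from 1.20 to 30.0 in PFC (median 5.53). In 9 PFC libraries it was above every striatal library, and its log2FC of -3.06 (SE 0.54, adjusted p = 0.000627) was past 2-fold. It was not past 2-fold within the 8 animals (-2.54, glmTreat adjusted p = 0.321) or without the 5 libraries (-2.51, glmTreat adjusted p = 0.0516), and not called within the 6 animals (adjusted p = 0.0504). Of 5 endothelial and choroid plexus markers tested, Ttr, the thyroid hormone carrier of choroid plexus, was called, with 0.045 to 147 in striatum (median 3.04), 8 PFC libraries at 0 and a log2FC of 5.37 (adjusted p = 0.0122), which was lost without striatum 4-3 (4.12, adjusted p = 0.0895). The part of these cells in the regional differences was not tested.

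The other 3 conditions gave the same comparison in other animals: 8 striatal and 12 PFC libraries in MOR-SAL, 15 and 9 in SAL-LPS, and 18 and 14 in MOR-LPS. There 8 of 35 PFC and 5 of 41 striatal libraries were nearer to the other region in the marker check. The libraries labelled PFC MOR-SAL 15-2 and 16-3, both labelled female, held 142 CPM of Y-linked genes each, against 0 to 0.209 in the 5 other female PFC libraries of that condition. They were also closer to each other than any other pair in the 3 conditions (chi-square per degree of freedom 5.10 over genes, 11.4 for the next). They were kept under their labels, and without them 134 genes were past 2-fold in MOR-SAL against 89 with them. Called higher in striatum and in PFC were 8.63% and 12.1% of genes in MOR-SAL, 8.7% and 12.1% in SAL-LPS, and 7.96% and 13.3% in MOR-LPS. With the animal as a block, edgeR's calls in MOR-SAL fell from 2937 genes to 0 (1705 at an unadjusted p under 0.05), from 2944 to 484 in SAL-LPS and from 3001 to 1614 in MOR-LPS, over 5, 8 and 11 animals. The 5 MOR-SAL animals included 15-0 and 14-1, whose PFC libraries were nearer to striatum in the marker check. They also included 15-2, whose PFC library went against its labelled sex. The 0 therefore does not show that the regions were alike within animals. Past 2-fold on either side were 0.141% and 0.488%, 0.545% and 1.1%, and 0.198% and 0.651%.

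Of the 27 SAL-SAL genes past 2-fold in striatum, all 27 had the same direction in each of the 3 conditions. Past 2-fold in the same direction were 10 of them in MOR-SAL, 15 in SAL-LPS and 12 in MOR-LPS. Of the 23 PFC genes, 22, 23 and 23 had the same direction, and 6, 13 and 12 were past 2-fold. In all 3 were Lef1, Vav3, Fign, Synpo2, Ntng1, Tcf7l2 and Trpm6 on the striatal side and Ttc9b, Stx1a, Cckbr, Ptms, Nptx1 and Dkk3 on the PFC side. Lef1 had log2FC of 6.75, 6.69 and 5.68 in MOR-SAL, SAL-LPS and MOR-LPS, and Stx1a of -2.84, -2.89 and -2.56. Lmo4 was called in all 3 (-1.33, -1.70 and -1.44), and within animals in SAL-LPS (-1.62, adjusted p = 0.0121) and MOR-LPS (-1.63, adjusted p = 0.00481) but not in MOR-SAL (-0.79, adjusted p = 0.445). Vipr2 was called in SAL-LPS (4.37, adjusted p = 0.013) but not in MOR-SAL (2.48, adjusted p = 0.12) or MOR-LPS (1.59, adjusted p = 0.29), while within animals it was called in MOR-LPS (4.95, adjusted p = 0.0278) and not in SAL-LPS (3.63, adjusted p = 0.129). Past 2-fold within animals were 0, 21 and 20 genes in these conditions, against 89, 233 and 120 without the block.

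**Figure D5:**
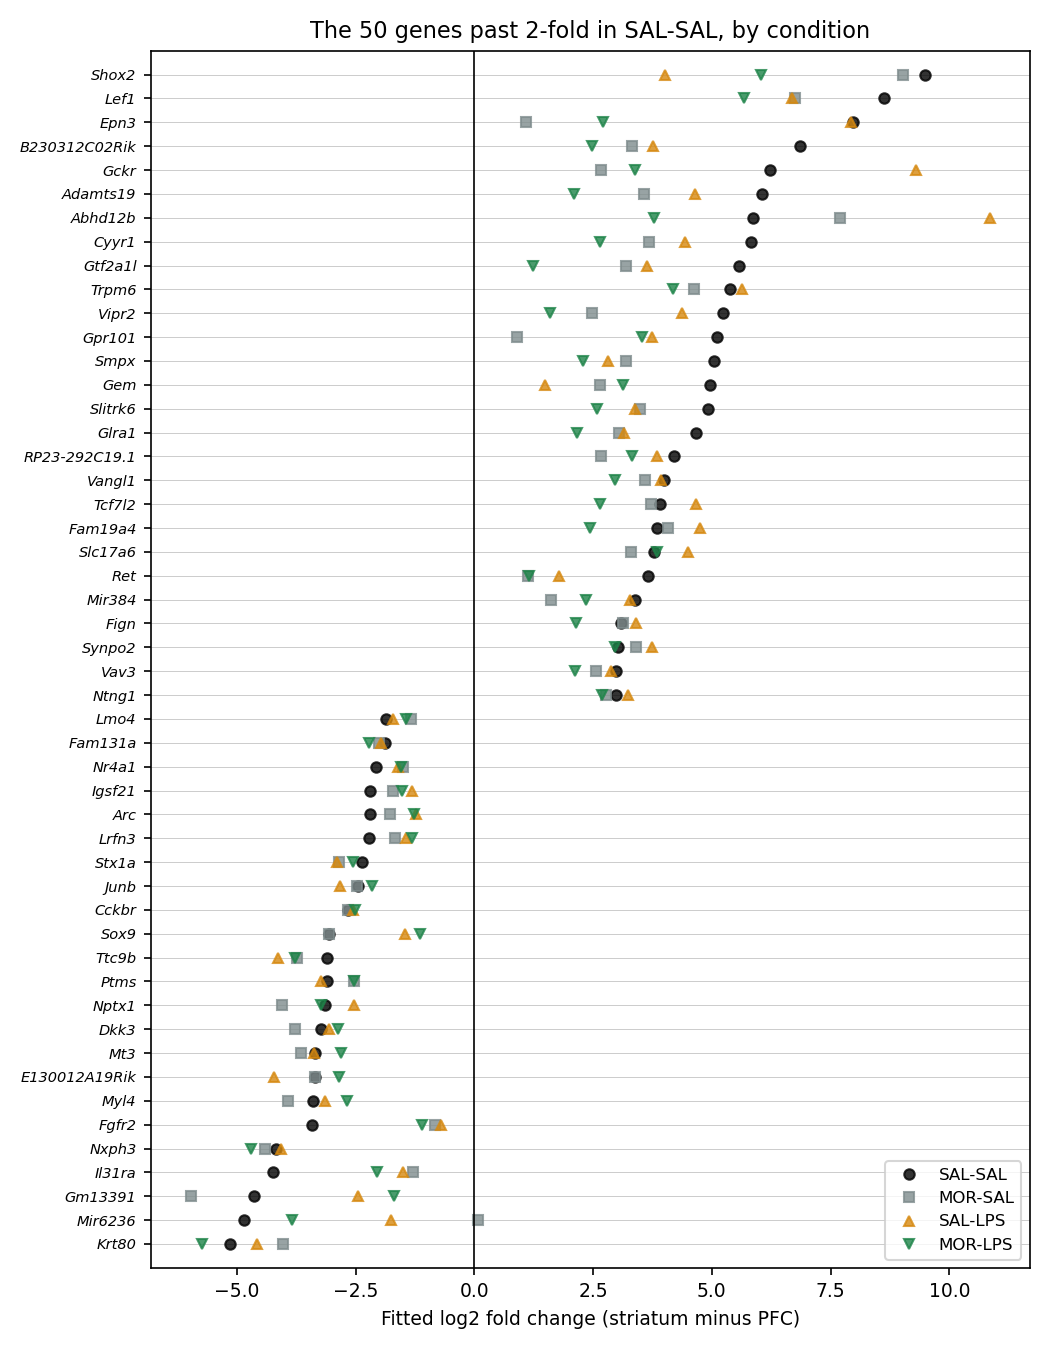
Fitted log2FC (striatum minus PFC) of the 50 genes past 2-fold in SAL-SAL, 1 row per gene, in SAL-SAL and in the 3 conditions that used other animals. On the striatal side all 27 lie right of 0 in the 4 conditions, and on the PFC side 1 point, Mir6236 in MOR-SAL, lies right of 0.

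By list, the 47 spiny neuron genes gave 8, 4 and 4 calls in striatum and 0, 1 and 1 in PFC in MOR-SAL, SAL-LPS and MOR-LPS, with medians of 0.36, -0.11 and -0.0012. The 25 cortical glutamatergic genes gave 14, 14 and 15 calls in PFC and 1 in striatum in each, with medians of -1.08, -1.16 and -1.06. The 21 immediate early genes gave 12, 11 and 15 calls in PFC and 0 in striatum, with medians of -1.49, -1.22 and -1.39. The 15 genes of neighbouring tissues gave 4, 4 and 5 calls in striatum and 1, 0 and 2 in PFC, with medians of -0.17, 0.75 and 0.72. Cholinergic genes gave 1, 0 and 0 calls in striatum, and Slc5a7 itself was not called in the other conditions (log2FC 0.55, 0.07 and 0.82).

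Whether the regional difference depends on sex or condition was tested by interaction. For sex in SAL-SAL, edgeR called 0 genes (334 at an unadjusted p under 0.05) and DESeq2 called 4. Against SAL-SAL, the regional difference was changed for 0 genes in MOR-SAL (499 unadjusted, and 8 by DESeq2), 8 in SAL-LPS (18 by DESeq2, but 2 by limma-voom with a correlation within animals) and 0 in MOR-LPS (389 unadjusted, and 0 by DESeq2). None of the genes described above was among the 8.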

How the data were processed

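Nuclear RNA of sorted NeuN+ nuclei was sequenced from 13 striatal and 10 PFC SAL-SAL libraries, 1 animal and 1 region each. The authors trimmed reads with Trim Galore 0.6.7, aligned them to mm10 with STAR 2.7.10a and deposited raw counts per gene, checked with HTSeq 0.12.4, for 46403 gene symbols in each region. Strand use in counting is not given in the sources used here, so genes that share exons with an antisense gene are uncertain. The deposited CPM tables and the authors' DESeq2 1.40.2 comparisons were not used. The counts are reads after PCR, so floors set from them cover counting error only.

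The 2 count tables were joined on the gene symbol, and 14140 genes were kept, those whose CPM averaged 1 or more across the 23 libraries. TMM normalization, estimateDisp, glmQLFit and glmQLFTest of edgeR 4.0.16 (limma 3.58.1, R 4.3.3) were fitted with region and sex as terms, and p was adjusted by Benjamini-Hochberg over all genes tested. glmTreat tested against a 2-fold difference. Normalized CPM are counts scaled to the TMM-adjusted total. The count floor was 3 counts over a region's libraries. Tables of the 2 regions hold raw counts and were normalized together.

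The labels do not say what a replicate number stands for. Each number kept 1 sex and 1 condition and was read as an animal, and 8 numbers occur in both regions. The meaning of its first part is not given in the sources used here. Deviations of the 2 libraries of an animal from their group means correlated at -0.031 to 0.60 (median 0.11, 6 of 8 over 0.1), against a median of -0.0086 over 122 pairs of different animals. The study's own model has no animal term, so the animal was a block (replicate block) in an alternative. The other alternatives were DESeq2 size factors, library size only, no filter, a total count over 10, DESeq2 1.42.0, limma-voom with a correlation within animals (0.28), sums over libraries of a region whose numbers share their first part, no sex term, each sex alone, no depth limit, removal of genes with over 5% of a library's counts, and each library left out in turn. Added after seeing the data were, for the other conditions, the replicate block, the fits without libraries against their labels and limma-voom for the interactions. Also added were MOR-SAL fits without 2 libraries whose Y-linked genes went against their labelled sex, SAL-SAL fits without 5 libraries whose markers went against their label, a fit that counted 2 near-identical PFC libraries as 1, and a block fit without their animals. Scripts were tested on simulated data.

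The members, gene lists and tests were chosen with earlier results of these data known. Named genes are members of those lists, the 10 largest 2-fold differences per direction without overlap and with a mean of 10 normalized CPM (1 gene per direction qualified), and genes used to check labels. The others are said to be named after their values were seen. Positions are from GENCODE M21 on mm10, promoters from RefSeq on GRCm38.p6. Figures were drawn with matplotlib 3.10.9. Values of some list members are not reported here, though counts and medians of lists include them.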

Additional observations from a re-analysis of the deposited data

Results flagged for a closer look

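Among the 10 PFC libraries, 1 library stood apart from the rest by Dixon's criterion for 19 of 96 values tested. Chance gives about 1 in 20 for independent values with a normal spread. The values here come from the same libraries and all those flagged were highest values, so the 19 cannot be measured against that rate. The striatal group was too large for this criterion. PFC 10-3 was highest for Slc17a7 (625 normalized CPM, 318 in the next library), Slc17a6 (10.8 against 5.21), Slc5a7 (7.5 against 3.88) and Syn1 (434 against 292), and Rn18s-rs5 took 30.9% of its counts against 14% in the next. PFC 5-1, a library that went against its label, was highest for Bcl11b (2808 against 922 normalized CPM, which rounds to 2810), Ebf1 (237 against 88.7) and Sox9 (30 against 9.19), for Lars2 (5.86% of counts against 2.01%) and for mitochondrial transcripts (1.76% against 0.796%). PFC 4-3, another such library, was highest for Ppp1r1b (269 against 143). PFC 9-4 was highest for Tcf7l2 (59 against 31.3), Vipr2 (3.24 against 0.534) and Fign (44.1 against 10.8), and for the summed CPM of oligodendrocyte markers (5900 against 921) and microglia markers (341 against 65.5). PFC 9-0 was highest for Ttr (8.37 against 0.18), Synpo2 (70.6 against 29) and Nr4a3 (259 against 141).

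The regional difference itself differed between SAL-LPS and SAL-SAL for 8 genes in edgeR's interaction test with Benjamini-Hochberg adjustment, which takes libraries as independent. With a correlation within animals limma-voom called 2 genes, and DESeq2 called 18. Given as the log2FC in SAL-LPS minus that in SAL-SAL, the values were 9.46 for Gm29359 (adjusted p = 0.0227), 7.22 for Itgae (adjusted p = 0.0227), 6.16 for Gm21984 (adjusted p = 0.00237), 5.99 for Kcnmb3 (adjusted p = 0.0325), 5.95 for Gm26621 (adjusted p = 0.0254), 1.37 for Cep78 (adjusted p = 0.0325), -0.99 for Agpat6 (adjusted p = 0.0325) and -1.57 for Srsf6 (adjusted p = 0.0227).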

How the results depend on the processing

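The 2095 calls became 3615 with limma-voom and a correlation within animals, 713 with counts summed over libraries of a region whose numbers share their first part (number sums), 422 in females and 0 in males (2283 at an unadjusted p under 0.05 by edgeR), and ran from 1541 to 2557 with 1 library left out. With limma-voom the split turned, to 2040 calls higher in striatum and 1575 higher in PFC. The fit in males held 4 PFC libraries, among them the near-identical 1-3 and 3-0, and 5-1, which went against its label. The 50 genes past 2-fold became 29 with library size only, 94 with no filter, 87 with a filter on total count, 142 with the replicate block and 67 when that block left out the animals of the near-identical libraries, 28 with limma-voom, 2 with number sums, 32 with no sex term, 6 in females, 0 in males, 32 with the near-identical PFC libraries as 1 and 248 without the 5 libraries against their labels. With 1 library left out they ran from 18 to 74, and fell by over 1.5 times without PFC 10-1 (30), 10-3 (33), 9-0 (32), 1-1 (18) or 1-3 (30) and without striatum 10-1 (32), 4-3 (30), 9-0 (18), 9-2 (27), 1-1 (27), 11-1 (28) or 3-0 (29).

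In the other conditions, genes past 2-fold became 0 in MOR-SAL, 21 in SAL-LPS and 20 in MOR-LPS with the block, and 165 in MOR-SAL without libraries against their labels. Without the 2 MOR-SAL libraries whose Y-linked genes went against their labelled sex they became 134, and with the block as well 0. The sex interaction gave 4 genes with DESeq2. The MOR-SAL interaction gave 1 with no sex term and 8 with DESeq2, and the SAL-LPS one 5 with library size only, 18 with DESeq2 and 2 with limma-voom. The cause of these changes was not tested.

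Of 82 genes examined, the 69 called kept their direction in all 39 alternatives, and 54 kept their call with any 1 library left out. Of the 69 calls, 31 were lost with number sums, 33 in females and 69 in males. The replicate block without the animals of the near-identical libraries lost 15 (Slc17a6, Nr2f2, Bcl11b, Gpr155, Pde2a, Slc5a7, Oprd1, Kcnc2, Hcn4, Cacna1a, Sox9, Ttr, Strn, Gabrg1 and Slitrk6). Leaving out the 5 libraries lost 7 (Nr2f2, Bcl11b, Pde2a, Arpp21, Chrm2, Gabrb2 and Kcnc2), library size only 6 (Fezf2, Pde2a, Arpp21, Chrm1, Oprd1 and Grin1), the near-identical libraries as 1 6 (Fezf2, Prkcd, Oprd1, Grik2, Hcn4 and Strn) and no sex term 4 (Neurod2, Fezf2, Chrm1 and Hcn4). Reversals fell on uncalled genes. In females log2FC were -0.20 (Drd1), -0.42 (Adora2a) and -0.47 (Tac1), and with limma-voom -0.14 (Adora2a). Drd2 was -0.14 with the near-identical libraries as 1. Ppp1r1b was 0.16 with number sums and 0.53 in males. Rgs9 was 0.25 with library size only, 0.019 with no filter, 0.75 with the block, 0.50 with the block without the near-identical libraries, 0.035 with limma-voom, 0.12 with number sums, 0.059 in females, 0.015 with abundant genes removed and 0.64 without libraries against their labels. With 1 library left out, log2FC ran from -0.051 to 0.51 for Drd1, -0.18 to 0.44 for Drd2, -0.021 to 0.50 for Adora2a and -0.25 to 0.30 for Rgs9, with the lowest values of Drd1 and Adora2a without striatum 5-3. The block by animal over all 8 changed no call other than those given beside their genes. The block takes a replicate number as 1 animal, which the labels do not state. Depth limits genes of a few CPM, where 1 library can set a value.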
